A study of Caenorhabditis elegans with 12 samples.

Results

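Intraflagellar transport complex B (IFT-B) was followed through the genes osm-5, osm-6, ift-74, ift-81, dyf-1, dyf-13, osm-1, che-2, che-13 and dyf-11 of Caenorhabditis elegans. They were chosen by name, and their probe sets were those that the platform annotation gives to 1 of these genes alone. All 10 genes were on the array, with 13 of the 22548 probe sets tested, out of 17118 genes that had a probe set of their own. The genes osm-5, che-13 and ift-81 had 2 probe sets each. The one with the higher mean over the 12 arrays stands for the gene below, and the other is reported only where it is named. Per RefSeq WBcel235, osm-1, osm-5, che-2, dyf-11 and ift-81 lie on chromosome X, che-13 and dyf-1 on I, dyf-13 and ift-74 on II and osm-6 on V; the files name no build, so no positions are given.

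Cilia are built and kept up by intraflagellar transport, in which protein complexes travel along the axonemal microtubules with cargo such as tubulin. IFT-B is needed mainly for transport by the kinesin motors towards the ciliary tip, and IFT-A mainly for the return to the base by the dynein motor. In C. elegans the only ciliated cells of the hermaphrodite are sensory neurons, and worms that lack IFT-B proteins have short or absent cilia and fail to take up dye or to sense many chemicals. The RFX factor DAF-19 acts through X-box promoter motifs on many of these genes.

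The study measured RNA on 12 Affymetrix arrays, 3 each from mir-124 mutant GFP+, mir-124 mutant GFP-, wild-type GFP+ and wild-type GFP- cells of embryos. The protocol given for all samples describes a transgene of pmir-124::GFP with lin-15(+), made in lin-15 (n765) worms grown at 20 degrees, integrated by X-rays and outcrossed 2 times into N2. GFP therefore reports activity of the mir-124 promoter, and the sort did not use any ciliary marker. Dissociated embryonic cells were cultured for 24 hours before 500000 were sorted for each sample, and the extracted mRNA was amplified. The labels do not name the mir-124 allele. In such bulk samples fewer cells of a type and less RNA per cell cannot be told apart. The series calls the triplicates biological, and nothing used here ties a replicate to its own culture, so the p-values reflect spread among these arrays, which may be technical.

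Both wild-type replicate 3 arrays stood apart, and wild-type GFP- replicate 3 went against its label. The mean log2 signal of the 10 IFT-B genes was 8.654 on that GFP- array and 8.731 on wild-type GFP+ replicate 3. On the other 10 arrays the GFP+ values lay between 7.579 and 8.234 and the GFP- values between 4.637 and 4.924. Body wall muscle markers (6 genes) averaged 7.158 in the library labelled wild-type GFP- replicate 3, against 9.296 to 10.089 in the other GFP- and 6.686 to 7.317 in the other GFP+ arrays. The signal gap between 3' and middle control probe sets was 3.56 and 3.533 log2 units on the wild-type replicate 3 pair and 1.636 to 2.184 on the other 10 arrays. Results are therefore given for all 12 arrays and for the 10 arrays without that pair. The IFT-B signal is among the grounds for setting the pair apart, so the 10-array counts for these genes are not independent of it. The muscle markers and the control gap do not use the IFT-B genes. All tests are limma on log2 values, 2-sided, with Benjamini-Hochberg adjustment over the 22548 probe sets and a threshold of 0.05.

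GFP+ against GFP- cells of the mir-124 mutant asked whether IFT-B genes mark the cells in which the mir-124 promoter is active. All 10 genes had a higher signal on each of the 3 GFP+ arrays than on each of the 3 GFP- arrays, which was so for 20.1% of all probe sets. With 12 arrays 7 of the 10 passed the test, all of them higher, against 5.81% of all probe sets called higher. With 10 arrays 10 of 10 passed, against 13.5%, and with only the 6 mutant arrays 10 of 10, against 11.5%. The log2 differences ran from 1.21 for dyf-1 to 4.34 for dyf-13 with a median of 3.30, while the median of all probe sets was 0.0041. These differences use only mutant arrays, so they are the same in all these fits, and only their standard errors change.

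**Figure D1:**
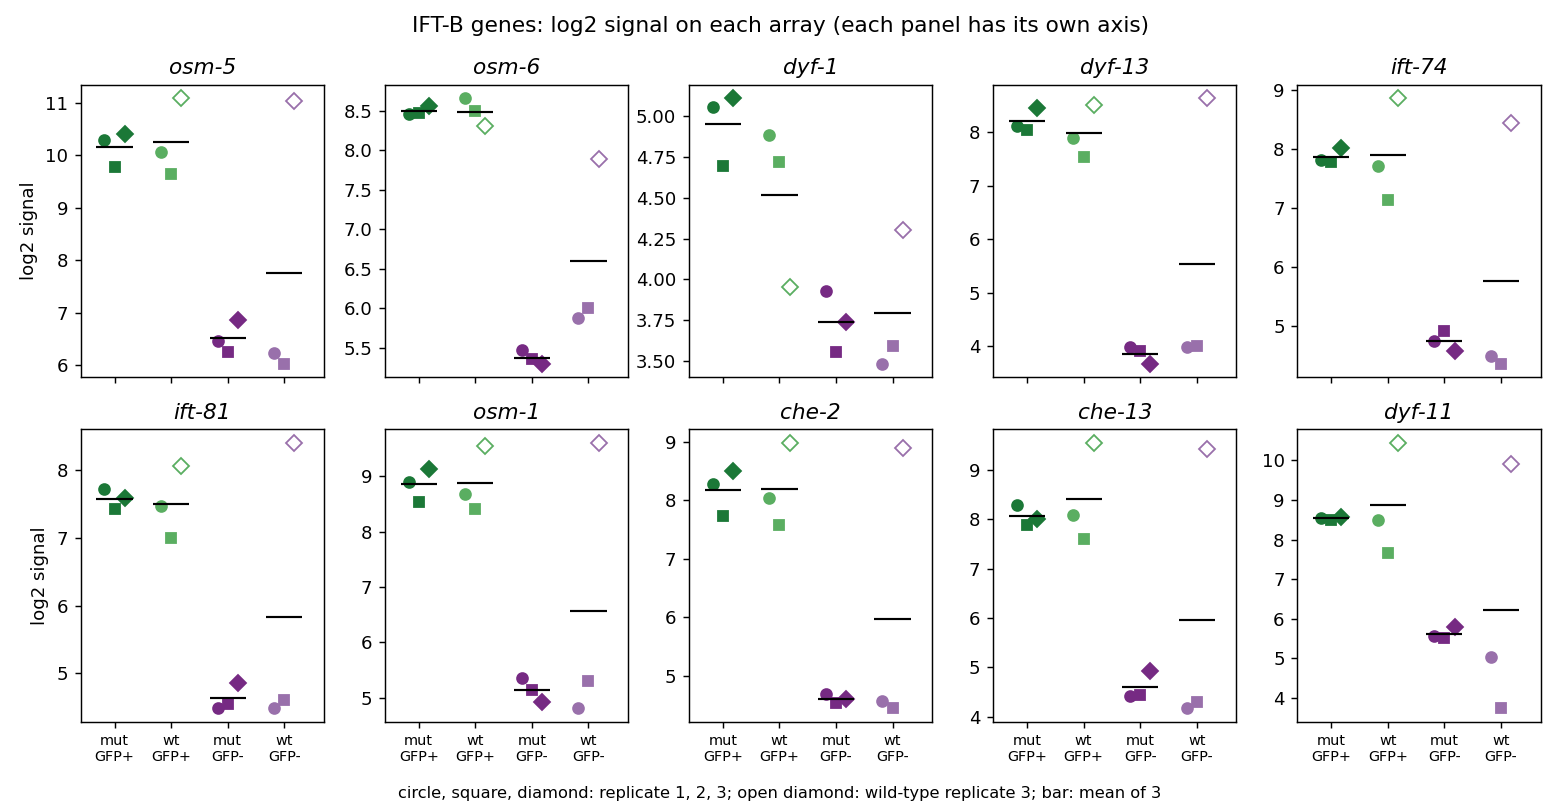
Log2 signal (y axis, a separate scale for each gene) of the 10 IFT-B genes on each of the 12 arrays, by strain and GFP fraction (x axis). Circles, squares and diamonds are replicates 1, 2 and 3, open diamonds are the wild-type replicate 3 pair and bars are means of 3. The open diamond of wild-type GFP- lies near the GFP+ arrays for most genes, with values such as 8.64 for dyf-13 against 3.99 and 4.01 in the other wild-type GFP- arrays.

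The genes of the IFT-B core were taken first. OSM-5, the worm IFT88 protein, is needed for cilium assembly from algae to mammals. Its log2 signal was 10.29, 9.77 and 10.41 in mutant GFP+ replicates 1 to 3 and 6.46, 6.25 and 6.86 in mutant GFP- cells. The groups did not overlap, and the difference of 3.63 ± 1.07 (SE) missed the threshold with 12 arrays (limma adjusted p = 0.0526) and passed with 10 (± 0.216, adjusted p = 4.81e-06). It passed with 12 arrays once replicate numbers entered as a block (limma adjusted p = 0.0297, or 0.0215 with the block within strain). The second probe set of osm-5 read 3.13 ± 0.862 (limma adjusted p = 0.0423).

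OSM-6, the IFT52 protein, varied little between replicates, with SDs of 0.055 in GFP+ and 0.087 in GFP- cells. It read 8.45, 8.48 and 8.56 in mutant GFP+ and 5.47, 5.36 and 5.30 in mutant GFP- cells. The difference was 3.12 ± 0.421 with 12 arrays (limma adjusted p = 0.0117, the smallest among the 10 genes), an 8.68-fold higher signal.

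IFT-74 and IFT-81 bind each other as a coiled-coil pair, and their human and algal counterparts bind tubulin. The gene ift-74 read 7.81, 7.78 and 8.01 in mutant GFP+ and 4.74, 4.90 and 4.58 in mutant GFP- cells, a difference of 3.13 ± 0.904 (limma adjusted p = 0.049). The gene ift-81 read 7.72, 7.43 and 7.59 against 4.48, 4.55 and 4.85, a difference of 2.95 ± 0.835 (limma adjusted p = 0.0458). Both genes were thus well separated between the fractions and lay just inside the threshold with 12 arrays, and with 10 arrays their standard errors were 0.165 and 0.161. The dimmer probe set of ift-81, below the lower quartile of the array on all 3 mutant GFP- arrays, differed by 1.38 ± 0.616 (limma adjusted p = 0.178 with 12 arrays and 0.0104 with 10).

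DYF-1 and DYF-13, the IFT70 and IFT56 proteins, lay at the ends of the range. The gene dyf-13 read 8.12, 8.04 and 8.46 in mutant GFP+ and 3.99, 3.92 and 3.68 in mutant GFP- cells. The signals differed by 4.34 ± 0.988 (limma adjusted p = 0.0236). The gene dyf-1, whose product in C. elegans is needed for the OSM-3 kinesin to move IFT particles in the distal cilium, was dim throughout. It read 5.06, 4.69 and 5.11 in mutant GFP+, below the array medians, and 3.93, 3.56 and 3.74 in mutant GFP- cells. Its difference was 1.21 ± 0.278 (limma adjusted p = 0.0241). Both genes were below the lower quartile on all 3 mutant GFP- arrays, where signal near the floor limits how well the size of a difference is known.

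The remaining genes encode the peripheral IFT-B proteins. OSM-1, the IFT172 protein, read 8.89, 8.53 and 9.14 in mutant GFP+ and 5.35, 5.13 and 4.92 in mutant GFP- cells, a difference of 3.72 ± 0.986 (limma adjusted p = 0.0373). CHE-2, the IFT80 protein, read 8.29, 7.74 and 8.50 against 4.68, 4.52 and 4.60, a difference of 3.57 ± 0.964 (limma adjusted p = 0.0391). Neither gene overlapped between the fractions, and in both the GFP+ replicate 2 array was the lowest of its group.

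CHE-13, the IFT57 protein, and DYF-11, the IFT54 protein, did not pass with 12 arrays. The gene che-13 read 8.29, 7.88 and 8.001 in mutant GFP+ and 4.42, 4.43 and 4.92 in mutant GFP- cells, a difference of 3.46 ± 1.15 (limma adjusted p = 0.076). The gene dyf-11 read 8.55, 8.49 and 8.56 against 5.57, 5.51 and 5.80, a difference of 2.91 ± 1.28 (limma adjusted p = 0.171). Within-group SDs in mutant GFP+ and GFP- cells were 0.212 and 0.287 for che-13 and 0.034 and 0.151 for dyf-11, while the wild-type GFP- SDs, which enter the shared error, were 2.99 and 3.24. With 10 arrays both passed (SE 0.19 and 0.31, limma adjusted p = 3.43e-06 and 0.00015). With the replicate number as a block che-13 passed with 12 arrays (limma adjusted p = 0.0442) and dyf-11 did not (adjusted p = 0.0945), and with the block within strain both passed (adjusted p = 0.022 and 0.0238). The second che-13 probe set was below the lower quartile on all 12 arrays, and differed by 0.43 ± 0.131 (limma adjusted p = 0.0577).

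The count of 7, beside 1309 of all 22548 probe sets called higher, rested on single arrays of the 12-array fit. It was 0, 0 and 1 without mutant GFP+ replicate 1, 2 or 3. Of all probe sets 1, 0 and 204 were called higher in these fits. Without mutant GFP- replicate 1, 2 or 3 it was 1, 2 and 0, beside 185, 939 and 6 of all probe sets. Without wild-type GFP+ replicate 1 or 2 it was 3, beside 1054 and 995 of all probe sets. It was 10 without the library labelled wild-type GFP- replicate 3, beside 2175 of all probe sets. From the 10-array fit, leaving out any single mutant array kept all 10 genes past the threshold. The median difference was then between 3.25 and 3.36, and 4604 to 6293 of all probe sets passed in either direction.

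**Figure D2:**
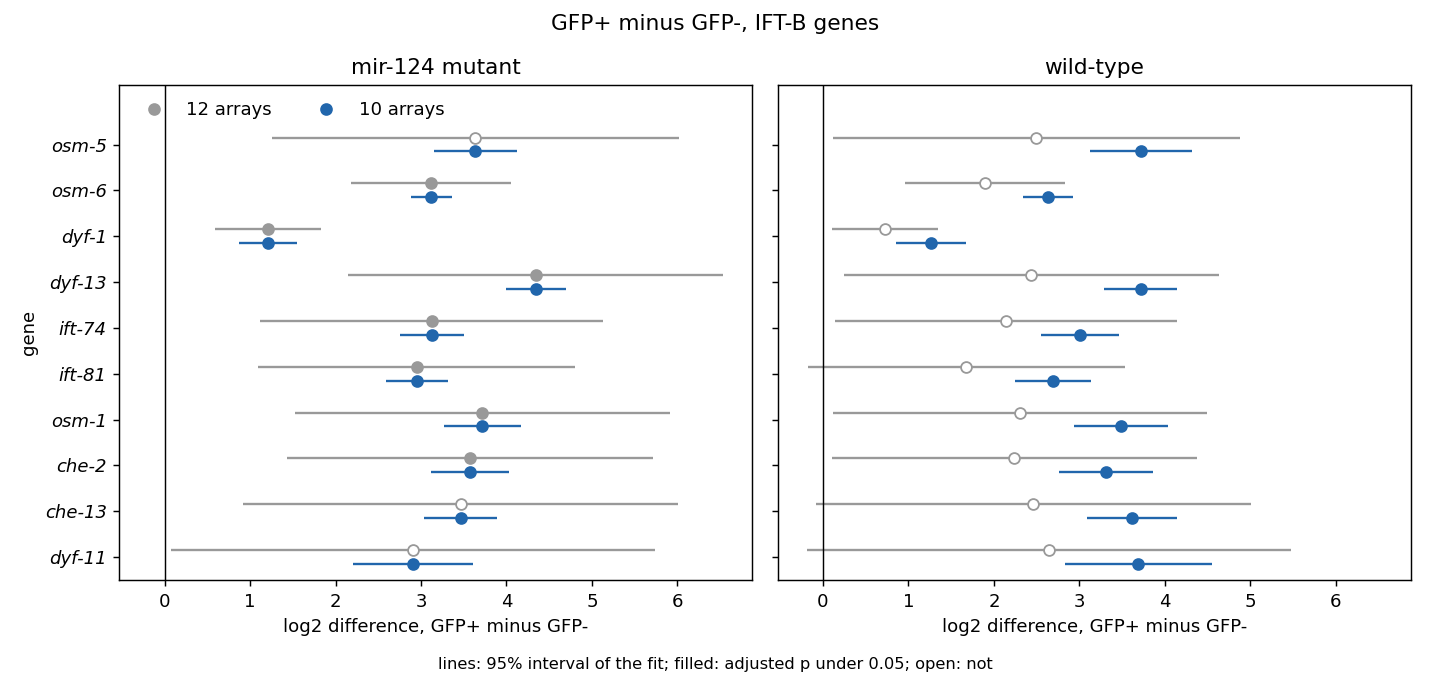
Log2 difference of GFP+ minus GFP- cells (x axis) for each IFT-B gene (y axis) in the mutant (left) and in wild-type (right). Grey points come from the fit of 12 arrays and blue points from the fit of 10, with 95% intervals as lines, and filled points passed the test. In the 10-array fit every gene is filled in both strains, and dyf-1 has the smallest difference, 1.21 and 1.26.

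GFP+ against GFP- cells of wild-type embryos was the matching comparison in embryos with an intact mir-124 gene. In replicates 1 and 2 the IFT-B genes were as far apart as in the mutant, and in the replicate 3 pair they were not apart. The difference within same-numbered arrays was 1.4 to 3.92 over the 10 genes in pair 1 (median 3.47), 1.12 to 3.92 in pair 2 (median 3.12) and -0.35 to 0.55 in pair 3 (median 0.07). In the mutant the 3 pairs had medians of 3.39, 3.16 and 3.35. With 12 arrays 0 of 10 genes passed limma, where 0.00443% of all probe sets passed in either direction. At an unadjusted p under 0.05 there were 7 of the 10, all higher, against 12.2% of all probe sets in either direction. With 10 arrays 10 of 10 passed, all higher, against 8.45% of all probe sets, with a median of 3.40. That fit leaves out the pair partly because these genes were high on its GFP- array, which favours such calls in wild-type. By the second probe sets in that fit, osm-5 differed by 3.31 ± 0.288 (limma adjusted p = 9.42e-05) and ift-81 by 1.33 ± 0.387 (adjusted p = 0.0468). The second che-13 probe set differed by 0.38 ± 0.138 and did not pass (limma adjusted p = 0.0997).

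In wild-type cells osm-5 had the largest difference without the pair. It read 10.06, 9.64 and 11.09 in GFP+ replicates 1 to 3 and 6.23, 6.03 and 11.04 in GFP- cells. All 12 arrays gave a difference of 2.5 ± 1.07 (limma adjusted p = 0.389), and the 10 gave 3.72 ± 0.264 (adjusted p = 3.37e-05). The gene osm-6 read 8.66, 8.50 and 8.31 against 5.88, 6.01 and 7.89. It was the only one of the 10 whose wild-type groups did not overlap with all arrays (5.49% of all probe sets were higher without overlap), and it differed by 1.89 ± 0.421 (limma adjusted p = 0.248) or, without the pair, 2.63 ± 0.131 (adjusted p = 7.33e-06).

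The genes ift-74 and ift-81 behaved alike in wild-type cells. The gene ift-74 read 7.71, 7.13 and 8.86 in GFP+ and 4.48, 4.35 and 8.45 in GFP- cells, with a 10-array difference of 3.01 ± 0.202 (limma adjusted p = 2.71e-05). The gene ift-81 read 7.47, 6.99 and 8.06 against 4.48, 4.60 and 8.41, with a difference of 2.69 ± 0.197 (limma adjusted p = 4.18e-05). In both, replicate 3 of the library labelled GFP- lay above replicates 1 and 2 of GFP+.

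Of the genes at the ends of the mutant range, dyf-13 read 7.89, 7.55 and 8.51 in wild-type GFP+ and 3.99, 4.01 and 8.64 in GFP- cells. Its 10-array difference was 3.72 ± 0.189 (limma adjusted p = 8.12e-06). The gene dyf-1 read 4.88, 4.72 and 3.95 against 3.48, 3.595 and 4.30, a difference of 1.26 ± 0.183 (limma adjusted p = 0.00164). In dyf-1 wild-type GFP+ replicate 3 was the lowest of its group, where in 8 of the 10 genes it was the highest.

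Among the peripheral genes, osm-1 read 8.68, 8.41 and 9.54 in wild-type GFP+ and 4.81, 5.31 and 9.61 in GFP- cells, a 10-array difference of 3.49 ± 0.245 (limma adjusted p = 3.24e-05). The gene che-2 read 8.04, 7.58 and 8.99 against 4.56, 4.44 and 8.89, a difference of 3.31 ± 0.246 (limma adjusted p = 4.36e-05). The gene che-13 read 8.09, 7.61 and 9.55 against 4.17, 4.29 and 9.41, a difference of 3.62 ± 0.232 (limma adjusted p = 2.07e-05). In all of them the library labelled GFP- replicate 3 exceeded GFP+ replicates 1 and 2. The gene dyf-11 varied most in wild-type cells, with 8.49, 7.67 and 10.44 in GFP+ and 5.03, 3.74 and 9.89 in GFP- cells. Its 10-array difference was 3.69 ± 0.38 (limma adjusted p = 0.000232), which became 4.33 when wild-type GFP- replicate 1 was also left out and 3.05 when replicate 2 was. The 12-array count of 0 became 10 when the library labelled wild-type GFP- replicate 3 was left out. That fit called 1402 of all 22548 probe sets higher. The count stayed 0 when any other single array was left out, where 0 to 394 of all probe sets passed in either direction. From the 10-array fit, leaving out single mutant arrays kept all 10 genes past the threshold, where 3196 to 4723 of all probe sets passed. Leaving out a wild-type array left 1 array in its group, with medians of 3.15 to 3.58.

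Mutant against wild-type cells asked whether loss of mir-124 moves the IFT-B genes. No difference between the strains passed for any of the 10 genes in either fraction. In GFP+ cells 0 of 10 passed limma with 12 arrays, where 0.0133% of all probe sets passed, and 0 of 10 passed with 10 arrays, where 0.0222% did. At an unadjusted p under 0.05 there were 0 of the 10 genes with 12 arrays, against 1.03% of all probe sets, and 2 with 10 arrays, against 3.05%. The differences ran from -0.36 to 0.43 with 12 arrays (median -0.0264) and from -0.08 to 0.49 with 10 (median 0.33), when the median of all probe sets was -0.0162 and 0.0115.

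The direction of the small GFP+ differences followed the wild-type replicate 3 array. With it 4 of the 10 genes had a higher mean in the mutant, and without it 9 did. The genes dyf-13 and ift-74 had the smallest unadjusted p without the pair, with differences of 0.49 ± 0.172 and 0.45 ± 0.184 (limma adjusted p = 1 for both). In these and in dyf-11 the mutant arrays lay above wild-type replicates 1 and 2, as did 10.8% of all probe sets, and wild-type replicate 3 lay above all mutant arrays for each of the 3 genes. The 95% intervals from 10 arrays reached from -0.35 to 1.24 over the 10 genes, so differences of this size are not excluded by these arrays.

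In GFP- cells 0 of 10 genes passed limma in either fit. Of all probe sets 0.0222% passed with 12 arrays and 0.0177% with 10. At an unadjusted p under 0.05 there was 1 of the 10 genes with 12 arrays, against 5.01% of all probe sets, and 2 with 10 arrays, against 5.33%. The gene osm-6 was lower in the mutant on every array, at 5.30 to 5.47, than in wild-type, 5.88 to 7.89 (3.81% of all probe sets were lower without overlap, and 8.36% without the pair). All 12 arrays gave a difference of -1.22 ± 0.421 (limma adjusted p = 0.822), and the 10 gave -0.57 ± 0.119 (adjusted p = 0.674). The gene dyf-13 was also lower in the mutant without overlap in both fits, but its highest mutant and lowest wild-type values were both 3.986. The gene dyf-11 went the other way without the pair, by 1.24 ± 0.347 (limma adjusted p = 0.878), and this difference was 0.59 when wild-type GFP- replicate 2, which read 3.74, was also left out and 1.88 when replicate 1 was. Like dyf-11, the genes osm-5, che-13 and ift-74 were higher in the mutant without overlap when the pair was left out. The share of all probe sets higher without overlap is not given here. With 12 arrays all 10 genes had a lower mean in mutant GFP- cells (median -1.23), and with 10 arrays 8 had a higher one (median 0.15). The GFP- direction thus turned with the library labelled wild-type GFP- replicate 3.

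**Figure D3:**
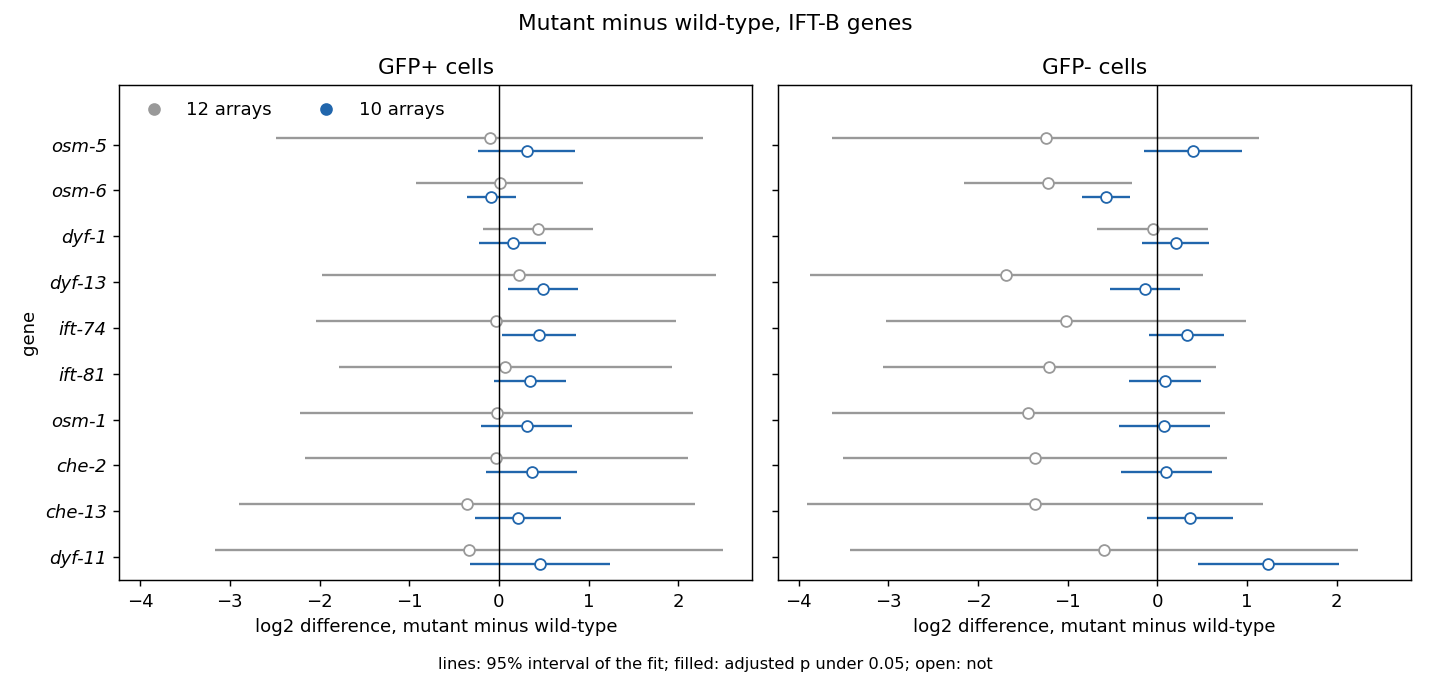
Log2 difference of mutant minus wild-type (x axis) for each IFT-B gene (y axis) in GFP+ (left) and GFP- cells (right). Grey points come from 12 arrays and blue points from 10, with 95% intervals as lines. All points are open, since none passed the test, and the grey points of GFP- cells lie below 0, down to -1.68 for dyf-13.

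Whether the GFP+ to GFP- difference itself depended on the strain was tested as an interaction. In both fits 0 of 10 genes and 0 of all probe sets (0%) passed limma. At an unadjusted p under 0.05 there were 0 of the 10 genes with 12 arrays, against 1.46% of all probe sets, and 2 with 10 arrays, against 1.18%. These were osm-6 at 0.485 ± 0.169 and dyf-13 at 0.63 ± 0.244 (limma adjusted p = 1 for both). With 12 arrays all 10 genes had interaction values above 0, from 0.26 for dyf-11 to 1.91 for dyf-13 (median 1.18). Without the pair the values ran from -0.78 for dyf-11 to 0.63 for dyf-13, and 6 were above 0 (median 0.18). The median standard error over the 10 genes was 1.38 log2 units with 12 arrays and 0.28 with 10.

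The 10 genes rose and fell together from array to array. Over the 12 arrays the 45 correlations between pairs of members had a median of 0.973 and a lowest value of 0.657, between dyf-1 and dyf-11. Over 10 arrays the median was 0.986 and the lowest 0.896. These values mostly restate the gap between the fractions, and all genes share the same arrays. Within the GFP+ groups replicate 2 was the lowest array for 9 of 10 genes in the mutant and for 8 of 10 in wild-type. The genes outside the 10 whose profile over 12 arrays was most like the members' mean were ifta-1 (r = 0.999), of the IFT-A complex, nphp-4 (r = 0.998), of the ciliary transition zone, F13E6.2 (r = 0.997), bbs-9 (r = 0.996), of the BBSome, and dhs-7 (r = 0.996), a short-chain dehydrogenase.

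Other genes of the transport system were taken from lists by complex. Of the remaining IFT-B genes on the array 1 of 3 rose in mutant GFP+ cells with 12 arrays and 3 of 3 with 10. These were dyf-3 (2.18 ± 0.43 with 12 arrays, limma adjusted p = 0.0168), dyf-6 (0.98 ± 0.297, adjusted p = 0.0566) and ifta-2 (4.62 ± 1.5, adjusted p = 0.0711). Of 6 IFT-A genes 5 rose with 12 arrays and 6 with 10 (median 3.10), led by che-11 (4.87 ± 1.31), ift-139 (4.06 ± 0.926) and ifta-1 (3.39 ± 0.959). The BBSome links IFT trains to membrane cargo. Of its 6 genes 4 rose with 12 arrays and 6 with 10 (median 3.55). The largest differences were 4.15 ± 1.07 for bbs-5, 3.99 ± 1.23 for bbs-9 (limma adjusted p = 0.0606) and 3.67 ± 0.797 for bbs-1. The share of all probe sets called higher is given above for both fits, and no test of these lists against each other was made.

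The motors had the lowest list median, 1.60 in the mutant and 1.48 in wild-type with 10 arrays. In mutant GFP+ cells 3 of 7 motor genes rose with 12 arrays and 6 of 7 with 10. The retrograde dynein genes were the highest, with che-3, the heavy chain, at 4.01 ± 1.04, xbx-1, a light intermediate chain, at 3.28 ± 0.844 and dylt-2, a light chain, at 2.64 ± 0.981 (limma adjusted p = 0.109). The kinase genes dyf-5 and dyf-18 and the factor gene daf-19 gave 2.82 ± 0.669, 2.43 ± 0.913 (limma adjusted p = 0.114) and 1.71 ± 0.421. In wild-type cells 0 of these 25 genes passed limma with 12 arrays, against 0.00443% of all probe sets in either direction. There 14 had an unadjusted p under 0.05, against 12.2% of all probe sets in either direction. With 10 arrays 24 passed, all higher, against 8.45% of all probe sets called higher.

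**Figure D4:**
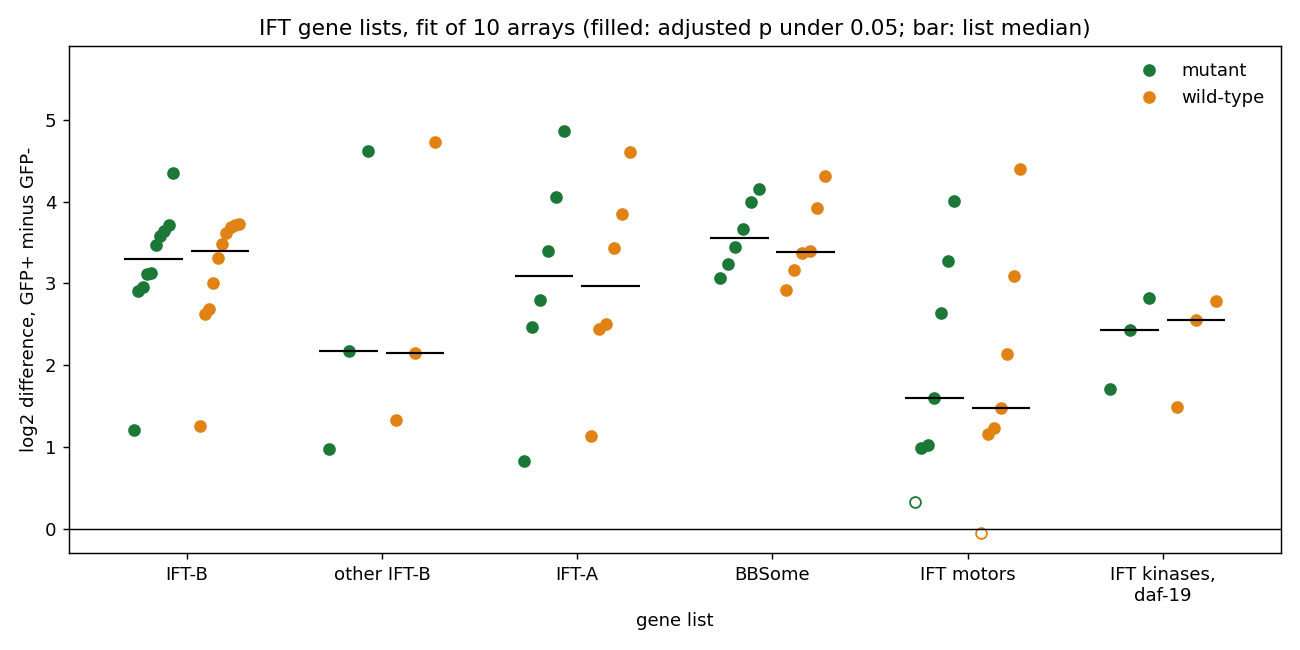
Log2 difference of GFP+ minus GFP- cells (y axis) for the genes of each transport list (x axis), in the mutant (green) and wild-type (orange), from the fit of 10 arrays. Points are genes, filled where they passed, and bars are list medians. The IFT-B medians are 3.30 and 3.40 and the motor medians 1.60 and 1.48, and the only open points belong to the motor gene klp-11.

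Markers of cell types moved with the same fractions, and their part in the IFT-B differences was not tested. Of 6 sensory neuron markers outside transport 4 rose in mutant GFP+ cells with 12 arrays and 6 with 10. On the 10 arrays their mean signal ranged from 6.937 to 7.261 in GFP+ cells and from 4.808 to 5.05 in GFP- cells. Of 8 pan-neuronal genes 4 rose with 12 arrays and 6 with 10, with mean signals of 8.793 to 9.233 and 7.421 to 7.914. Of all probe sets 6.30% were called lower in mutant GFP+ cells with 12 arrays and 14.0% with 10. Of 6 body wall muscle genes 4 fell with 12 arrays and 6 with 10, and both coelomocyte genes fell in both fits. Falls with 12 and 10 arrays numbered 3 and 3 of 5 intestine genes, 2 and 2 of 5 epidermis genes, 0 and 3 of 5 pharynx genes and 1 and 2 of 4 germline genes. Glial markers gave 1 fall of 5 with 12 arrays, and 2 falls and 1 rise with 10. Their mean ranged from 5.897 to 6.232 in GFP+ cells and from 6.05 to 6.361 in GFP- cells, so this list overlapped between the fractions.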

How the data were processed

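Per the labels and the deposited table, the values are log2 summaries, 1 per probe set and array, from 1-colour Affymetrix arrays of amplified RNA. RMA and MAS5 both appear in the submitters' processing notes, beside affy and limma, so which made the log2 values is not settled here. Array medians were 5.391 to 5.509, and no further scaling was done. Of 22625 probe sets 77 controls were set aside. The platform annotation gave 20766 of the 22548 others to 1 gene, 887 to several and 895 to none, and symbols were updated by gene identifier from RefSeq WBcel235. Scanner files were not used here, and the number of arrays limits the precision.

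Tests used limma 3.58.1 (lmFit with 4 group means, eBayes) in R 4.3.3, without a filter. The code was tested on simulated data. Figures were drawn with matplotlib 3.10.9. The members, lists and rules were chosen with earlier results of these data known, including the stand-out wild-type replicate 3 pair. Genes named were the 10 members, of each other transport list up to 3 with the largest mutant difference (short lists in full) and the 5 most alike in profile. The cell type lists were sensory neuron, pan-neuronal, muscle, pharynx, intestine, epidermis, glia, germline and coelomocyte markers. Same-numbered arrays deviated together from their group means between the fractions (correlations of 0.36, 0.435 and 0.359 in the mutant, 0.485, 0.41 and 0.418 in wild-type) and between the strains in GFP+ (0.278, 0.185 and 0.229). Between the strains in GFP- cells this was so for replicate 1 (0.232) but not for replicates 2 and 3 (-0.07 and -0.029). The wild-type correlations include the replicate 3 pair. Alternatives were other sets of arrays, the replicate block, normalization, array weights, priors, a filter on the dimmest 25% and means over a gene's probe sets. No probe, promoter or protein sequence was used here.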

Additional observations from a re-analysis of the deposited data

How the results depend on the processing

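Counts of IFT-B genes past the threshold kept within 1.5 times of the 12-array count under another normalization, prior, filter or probe set rule. For GFP+ against GFP- in the mutant (7 genes) these gave 6 to 8. Of all probe sets, or genes where probe sets were averaged, 1090 to 1463 were called higher. The replicate block gave 9, beside 1590 of all probe sets. With 10 arrays, array weights, the 6 mutant arrays alone and the block within strain the count was 10 each. In those fits 3035, 3390, 2588 and 2299 of all probe sets were called higher. Leaving out single replicates gave 0 to 10, beside 0 to 2175 of all probe sets. In wild-type (0 genes) the count was 10 with 10 arrays, with array weights and with 10 arrays plus the replicate block. The last was added after seeing the data. In these fits 1906, 2447 and 2537 of all probe sets were called higher. Leaving out single replicates gave 0 to 10 in wild-type, beside 0 to 1402 of all probe sets. The replicate block alone gave 0 in wild-type, where 0 of all probe sets passed. For mutant against wild-type in either fraction and for the interaction, 0 of 10 genes passed under every alternative run, the block included. At most 14 of all probe sets passed in these runs. Beside the block values given with osm-5, che-13 and dyf-11, the block changed no other call among the 10 genes. The block within strain could not be fitted between strains. The wide error of the 12-array fit limits what its missed calls can show. The gene dyf-1 and the dimmer probe sets of che-13 and ift-81 lie near the lower end of the signal range. So does dyf-13 in GFP- cells, except on wild-type GFP- replicate 3.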

Other observations

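The anterograde kinesins carry IFT-B, and the differences of their genes are given beside those of the IFT-B genes, which had medians of 3.30 in the mutant and 3.40 in wild-type and were smallest for dyf-1 (1.21 and 1.26). With 10 arrays osm-3, the homodimeric kinesin, was higher in GFP+ cells by 1.60 ± 0.218 in the mutant and 1.48 ± 0.267 in wild-type (limma adjusted p = 0.000661 and 0.00519). Of the heterotrimeric kinesin-II, klp-20 was higher by 0.99 ± 0.192 and 1.17 ± 0.235 (limma adjusted p = 0.00453 and 0.00922) and kap-1 by 1.03 ± 0.183 and 1.24 ± 0.224 (adjusted p = 0.00282 and 0.00521). Its other motor subunit, klp-11, read 10.6 in mutant GFP+ and 10.3 in mutant GFP- cells by its brightest probe set. The dimmest of its 4 probe sets read 6.18 and 5.85. By the brightest, the klp-11 differences were 0.33 ± 0.154 in the mutant and -0.05 ± 0.188 in wild-type (limma adjusted p = 0.146 and 0.925). Of the 4 klp-11 probe sets 1 passed in the mutant (0.47 ± 0.149, limma adjusted p = 0.0413) and 0 in wild-type. All 4, like the probe sets of osm-3, klp-20 and kap-1, have names that mark possible binding to related transcripts. So do the probe set that stands for osm-5 among the IFT-B genes and those of che-3, che-11, dyf-3 and daf-19. The kinesin genes were named after their values were seen.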
